A study of Mus musculus with 70 samples.

Results

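Hemoglobin, heme and iron handling was followed in B16F10 melanomas through 9 genes: the globin genes Hba-a1, Hba-a2, Hbb-bs and Hbb-bt, the heme synthesis gene Alas2, the heme breakdown gene Hmox1, the iron exporter gene Slc40a1, and the ferritin genes Fth1 and Ftl1. The 9 genes were taken by symbol from 55487 gene rows in each of 4 count tables, and they were chosen on earlier results of these same tables as possible traces of bleeding in ablated tissue and of iron recycling. Their differences between treatment groups are therefore given as a description, with no test. B16F10, a single transplanted mouse melanoma line, was grown on both flanks of young male and female C57BL/6 mice. Control tumors came from sham-treated mice, histotripsy-treated tumors had part of their volume broken up mechanically by focused ultrasound, and histotripsy-abscopal tumors were the untreated tumors on the other flank of treated mice. Cells sorted as CD45+ (immune) or CD45- (tumor and supporting cells) gave 1 library each of 3' end RNA sequencing. Day 3 after treatment gave 4 CD45+ libraries of control tumors, 6 of histotripsy-treated tumors and 7 of histotripsy-abscopal tumors, and 4, 7 and 7 CD45- libraries in that order. Day 7 gave 10, 3 and 4 CD45+ libraries, and 11, 3 and 4 CD45- libraries. The labels do not say which animal or sex a library came from, so treated and abscopal tumors of a mouse could not be matched.

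Hemoglobin is made of alpha-globin and beta-globin chains that each hold a heme, and reticulocytes, the youngest red cells in blood, still carry globin mRNA. When red cells break down, macrophages take up hemoglobin, heme oxygenase 1 (Hmox1) opens the heme ring and frees its iron, ferritin (Fth1 and Ftl1) stores that iron, and ferroportin (Slc40a1) exports it back to the blood. Alas2 encodes the erythroid form of the enzyme that starts heme synthesis, and Alas1 the form used by other cells. Iron regulatory proteins bind a hairpin in the mRNA of ferritin, ferroportin and Alas2 and of the transferrin receptor (Tfrc), so that much of this control acts on translation or mRNA decay as well as on transcription.

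Each library held 887798 to 3820705 counts, with a median of 2105674, and the 4 libraries under 1000000 counts were all CD45+. Ptprc, which encodes CD45, had 929 to 2916 counts in CD45+ libraries and at most 3 in any CD45- library. Levels are given as CPM, counts scaled to 1000000 of the library size after scaling by TMM, a correction for library composition. Differences are log2 fold changes from edgeR. Their standard errors (SE) were worked back from edgeR's test statistic, as the absolute log2 fold change over the square root of F. Replicates are named by their number in the labels.

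The hairpins of the iron-controlled members are shown because they are the part of the mRNA that the iron regulatory proteins hold. They were located in GENCODE M21 transcripts on the GRCm38 mouse genome, with the 6-base loop in capitals and the paired stem on either side. In each case the hairpin lay in exon 1, ahead of the coding part.
Slc40a1: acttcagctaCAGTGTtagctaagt
Ftl1: cttgcttcaaCAGTGTttgaacgga
Fth1: cctgcttcaaCAGTGCttgaacgga
Alas2: ggttcgtcctCAGTGCagggcaaca
The Slc40a1 hairpin was at chr1:45925467-45925491 on the minus strand, that of Ftl1 at chr7:45459781-45459805 on the minus strand, that of Fth1 at chr19:9982734-9982758 on the plus strand and that of Alas2 at chrX:150547460-150547484 on the plus strand. The search asked for C, any 5 bases, the loop CAGTGN, and 5 bases able to pair with the first 5, on the transcript's strand. A match lay in the first 200 bases of the transcript, ahead of the coding part, in 21 of 21877 protein-coding genes (0.096%). The globin genes and Hmox1 held no match in these bases ahead of the coding part, and the rest of their transcripts was not searched. Tfrc held 4 matches after its coding part.

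The globin promoters are shown because the 4 globin genes moved together from library to library, as described below. Each line gives the bases from 110 to 11 before the RefSeq transcription start on GRCm38.p6, with the motif CCAAT, the motif CACCC and the motif ATATAA in capitals wherever they lay on either strand.
Hba-a1: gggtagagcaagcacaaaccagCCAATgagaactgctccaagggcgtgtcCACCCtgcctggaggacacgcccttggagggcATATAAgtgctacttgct
Hba-a2: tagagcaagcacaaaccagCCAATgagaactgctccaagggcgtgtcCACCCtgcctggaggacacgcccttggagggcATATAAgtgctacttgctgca
Hbb-bs: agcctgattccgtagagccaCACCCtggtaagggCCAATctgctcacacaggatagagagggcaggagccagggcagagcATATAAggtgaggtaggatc
Hbb-bt: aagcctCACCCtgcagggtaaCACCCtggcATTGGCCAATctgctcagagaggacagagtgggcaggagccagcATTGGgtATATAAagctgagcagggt
The windows were chr11:32283562-32283661 (plus strand) for Hba-a1, chr11:32296382-32296481 (plus) for Hba-a2, chr7:103827939-103828038 (minus) for Hbb-bs and chr7:103813934-103814033 (minus) for Hbb-bt. ATATAA, the TATA box of these genes, began 28, 31, 30 and 29 bases before the start in that order, and in Hbb-bt a reverse CCAAT adjoined the forward one. Over the same windows of 32851 promoters, CCAAT was present in 19.2%, CACCC in 27.3%, ATATAA in 3.9% and all 3 in 0.207%. The Hba-a1 and Hba-a2 promoters were 94.2% identical and the Hbb-bs and Hbb-bt promoters 73.1%. The transcripts of each pair were also alike, 80.1% over their last 150 bases for the alpha pair and 73.4% for the beta pair, so reads could have been split between the copies of a pair, and single-copy values are uncertain to that extent.

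In CD45+ cells on day 3, globin levels were highest in histotripsy-treated tumors, but the difference came from a few libraries and the groups overlapped. Hbb-bs, an adult beta-globin gene, was at 45.4, 40.3, 104 and 565 CPM in control replicates 1 to 4. In histotripsy-treated tumors it was at 71.4, 46.0, 5028, 1139, 286 and 358 CPM in replicates 1 to 6, and in histotripsy-abscopal tumors it ran from 45.0 to 656 CPM with a median of 248. Treated replicates 3 and 4 were above every control library, the other 4 treated libraries lay within the control range, and control replicate 4 stood well above the other controls. The log2 fold change of treated over control tumors was 2.59 ± 1.06 (SE), that of abscopal over control was 0.46 ± 0.95 and that of treated over abscopal was 2.13 ± 0.84. Hbb-bt, the neighbouring adult beta-globin gene, was at 10.2, 13.4, 30.9 and 193 CPM in control tumors and at 17.8, 12.7, 2485, 348, 79.6 and 111 CPM in treated tumors (log2 fold change 2.98 ± 1.16). Hba-a1, an alpha-globin gene, was at 9.26, 7.75, 14.3 and 92.6 CPM in control tumors and at 16.99, 6.36, 1287, 342, 68.5 and 82.6 CPM in treated tumors (3.18 ± 1.09). The second alpha-globin gene, Hba-a2, was at 8.34, 5.16, 11.3 and 69.9 CPM against 13.6, 4.95, 825, 226, 33.3 and 58.3 CPM (2.91 ± 1.02). For each of the 4 genes the same 2 treated libraries were above all controls. Abscopal tumors ranged over 5.29 to 126 CPM for Hba-a1, 9.92 to 95.9 for Hba-a2 and 14.5 to 233 for Hbb-bt, overlapping the controls throughout. In sorted cells measured in bulk, fewer cells of a type and less RNA per cell cannot be told apart, and this holds for every level given here.

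**Figure D1:**
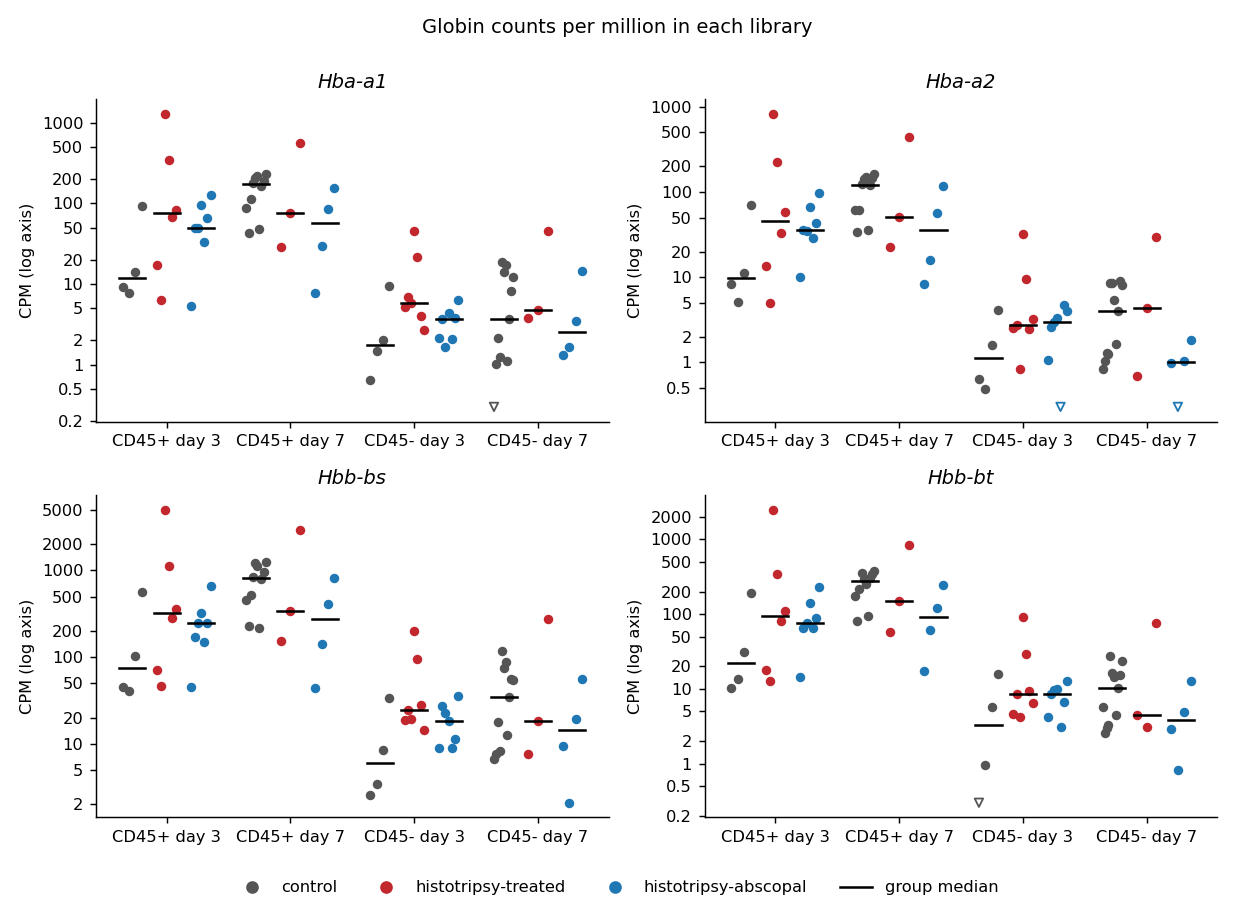
Level of Hba-a1, Hba-a2, Hbb-bs and Hbb-bt in every library (CPM, log axis) by sorted fraction, day and group, with black bars at group medians and open triangles at the bottom for libraries at 0. CD45+ day 3 treated replicate 3 reaches 5028 CPM of Hbb-bs, and on day 7 every CD45+ control library (216 to 1252 CPM) lies above every CD45- control library (6.64 to 117 CPM).

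Control replicate 4 and treated replicate 3, the highest of their groups for globin, were also the highest for other blood cell markers. The summed level of the neutrophil markers was 501 to 2703 CPM in CD45+ day 3 control tumors, with replicate 4 highest, and 1524 to 36290 CPM in treated tumors, with replicate 3 highest. The platelet markers summed to 36.1 to 428 CPM in control tumors and 46.7 to 1706 CPM in treated tumors, and the same 2 libraries were the highest of their groups. Pf4 and Ppbp made up most of those 2 highest sums, at 861.6 and 841.6 CPM in treated replicate 3 and 251.8 and 175.4 CPM in control replicate 4. Of the 8 markers, 5 had at most 3 counts in every control library and 4 in every treated library. Treated replicate 4, second for globin, held 188.9 CPM of Pf4 and 30.57 CPM of Ppbp, below treated replicate 2 (210.0 and 38.89 CPM). Of the neutrophil markers, 6 of 7 tested were higher in treated than in control tumors, S100a8 by 2.69 on the log2 scale (edgeR adjusted p = 0.0274). The part of these cells in the globin values was not tested. Markers of nucleated red cell precursors stayed close to 0. Of 13 erythroid markers measured, all 13 had at most 3 counts in every control library, against 8 of 13 in treated and 11 of 13 in abscopal libraries. Their summed level was 2.27 to 4.63 CPM in control, 4.32 to 23.1 CPM in treated and 3.16 to 8.93 CPM in abscopal tumors, and treated replicate 3 was again the highest. Slc4a1, the anion exchanger of the red cell membrane, reached at most 10 counts, and Klf1, a defining erythroid transcription factor, at most 1. Alas2 had 4 counts in treated replicate 3 and 2 in treated replicate 4, the same libraries that were highest for globin, and 0 in every other CD45+ day 3 library. It had at most 1 count in the CD45+ day 7 libraries and 0 in all CD45- libraries, which allows up to 3 counts per library by counting error, and it passed no filter for a fit.

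On day 7, CD45+ control tumors spanned a wide globin range and 1 treated library again set the treated average. Hbb-bs was at 216 to 1252 CPM in the 10 control libraries, with a median of 815. It was at 154, 341 and 2913 CPM in treated replicates 1 to 3 and at 44.3, 141, 412 and 811 CPM in abscopal replicates 1 to 4. Treated replicate 3 was above every control and treated replicate 1 below every control for each of the 4 globins, while 2 of 4 abscopal libraries were below every control. The log2 fold change of treated over control tumors was 0.58 ± 0.66 for Hbb-bs, and without treated replicate 3 it was -1.64. Without that library the values for Hba-a1, Hba-a2 and Hbb-bt were -1.59, -1.60 and -1.32, against 0.61 ± 0.61, 0.75 ± 0.60 and 0.48 ± 0.57 with it. Abscopal tumors were lower than control tumors by all 4 genes, with log2 fold changes of -1.19 ± 0.65 for Hba-a1, -1.19 ± 0.66 for Hba-a2, -1.13 ± 0.66 for Hbb-bs and -1.23 ± 0.59 for Hbb-bt. Neutrophil markers summed to 622 to 2342 CPM in these abscopal libraries and 1669 to 5494 CPM in controls, and their part was not tested.

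CD45- cells held less globin RNA, and there too a few treated libraries stood above the rest. On day 3, Hbb-bs was at 2.56, 3.41, 8.46 and 33.8 CPM in control tumors. It was at 14.6 to 200 CPM in treated tumors, with a median of 24.5, and at 8.87 to 35.6 CPM in abscopal tumors, with a median of 18.1. Treated replicates 4 and 5, at 199.8 and 94.9 CPM, were above all controls, and the other 5 lay within the control range. The log2 fold changes of treated over control tumors were 1.89 ± 0.73 for Hba-a1, 2.09 ± 0.88 for Hba-a2, 2.20 ± 0.75 for Hbb-bs and 1.90 ± 0.83 for Hbb-bt. On day 7, Hbb-bs was at 6.64 to 117 CPM in control tumors, at 7.60, 18.4 and 274 CPM in treated replicates 1 to 3 and at 9.503, 2.08, 19.4 and 55.8 CPM in abscopal replicates 1 to 4. Treated replicate 3 was thus the highest of its group in both fractions. The day 7 log2 fold change of treated over control tumors was 1.07 ± 0.74 for Hbb-bs and -1.86 without that replicate. Hba-a1 was at 0 to 18.9 CPM in CD45- day 7 controls, a level of few counts, and its value went from 1.13 ± 0.74 to -0.88 without the same library. Neutrophil markers summed to at most 8.82 CPM and platelet markers to at most 5.04 CPM in any CD45- library. The 7 fibroblast markers did differ between groups. They summed to 17.5 to 1088 CPM (median 192) in CD45- day 3 control tumors, 54.9 to 14050 CPM (median 2112) in treated tumors, with replicate 3 highest, and 149 to 805 CPM (median 525) in abscopal tumors. On day 7 they reached 773 CPM in control tumors, 4017 CPM in treated replicate 3 and 2516 CPM in abscopal replicate 1. The part of these cells in the CD45- values of the globins, Hmox1 and Fth1 was not tested.

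Leaving out single libraries showed how far each globin value leaned on them. In CD45+ cells on day 3, the treated over control log2 fold change of Hbb-bs ran from 0.98 without treated replicate 3 to 4.18 without control replicate 4. The same 2 libraries gave the limits for Hba-a1 (1.63 to 4.83), Hba-a2 (1.39 to 4.55) and Hbb-bt (0.80 to 4.77). The sign held in each of these fits. For treated against abscopal tumors, leaving out treated replicate 3 took Hbb-bs from 2.13 to 0.53 and Hbb-bt from 2.37 to 0.21. In CD45- cells on day 3, Hbb-bs ran from 1.44 without treated replicate 4 to 3.50 without control replicate 4.

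**Figure D2:**
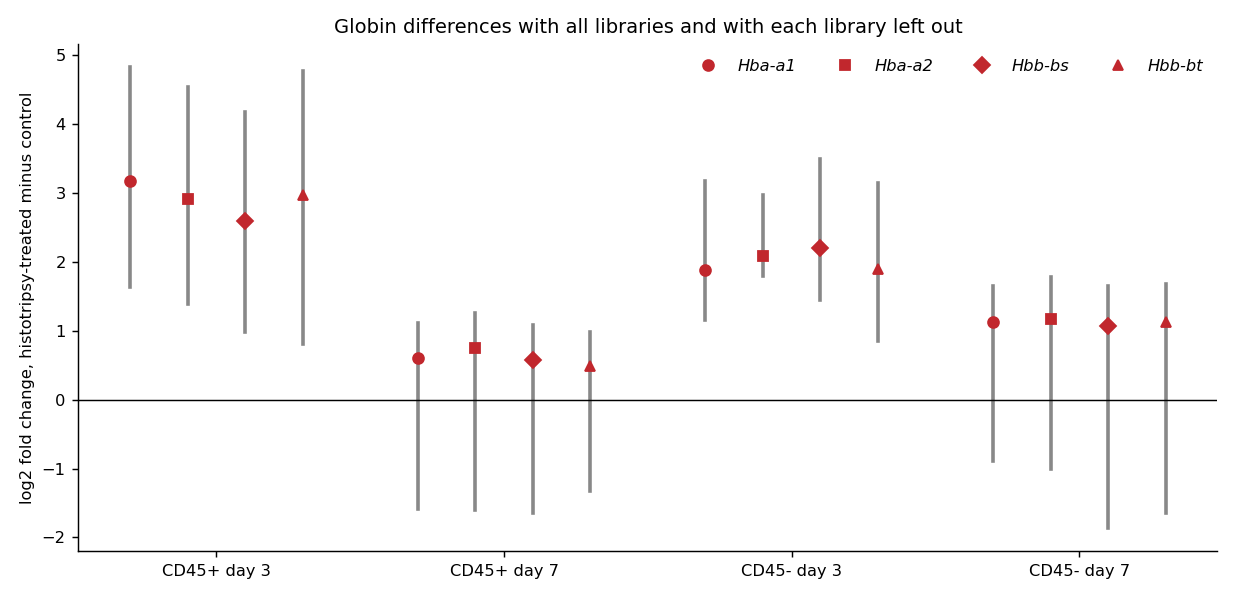
Log2 fold change of treated over control tumors for the 4 globin genes in each fraction and day (markers), with grey lines from the lowest to the highest value when each library was left out in turn. The day 3 lines stay above 0, and the day 7 lines cross 0 (Hbb-bs in CD45+ cells, 0.58 with all libraries and -1.64 without treated replicate 3).

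The make-up of the globin RNA was steadier than its amount. In CD45+ libraries, Hbb-bs took a median of 73.0% to 77.4% of the beta-globin counts across groups and days (66.9% to 81.8% in single libraries). Beta-globin genes took 72.3% to 84.1% of all globin counts in single CD45+ libraries. After group means were removed, the log2 levels of any 2 of the 4 globins correlated at r = 0.981 to 0.995 over the 17 CD45+ day 3 libraries and at 0.971 to 0.996 over the 17 of day 7. Over the 18 CD45- libraries of each day, where counts were low, r was 0.755 to 0.95 on day 3 and 0.862 to 0.944 on day 7. These correlations share library and depth, and reads may have been split between similar copies, so they are given as a description. On the same scale, Hbb-bs and Hmox1 correlated at 0.718 in CD45+ cells on day 3 and at 0.45 on day 7, and Hbb-bs and Slc40a1 at 0.245 on day 3.

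Hmox1, the enzyme that releases iron from heme, differed less than the globins in its averages. In CD45+ cells on day 3 it was at 422, 454, 1094 and 1186 CPM in control tumors and at 615, 883, 2227, 1410, 877 and 869 CPM in treated tumors. Treated replicates 3 and 4, which had the most globin, were also the 2 above every control. Abscopal tumors ran from 474 to 1111 CPM with a median of 594. The log2 fold change was 0.54 ± 0.36 for treated over control tumors, -0.17 ± 0.34 for abscopal over control and 0.71 ± 0.30 for treated over abscopal. On day 7 the 3 treated libraries, at 1209, 1193 and 1080 CPM, lay inside the control range of 582 to 1692 CPM (log2 fold change -0.02 ± 0.30). In CD45- cells on day 3, Hmox1 was at 325, 309, 395 and 371 CPM in control tumors and at 346 to 770 CPM in treated tumors, 5 of 7 of them above every control (0.53 ± 0.22), in the libraries whose fibroblast marker median was also higher, as given above. On day 7 the CD45- abscopal libraries were at 282, 209, 438 and 298 CPM, 3 of 4 of them below every control (-0.49 ± 0.24 for abscopal over control).

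Slc40a1, the only known cellular iron exporter, was the member whose CD45+ day 3 groups overlapped least. It was at 4.63, 0.516, 6.54 and 9.07 CPM in control tumors and at 16.99, 15.6, 23.1, 9.51, 7.41 and 13.3 CPM in treated tumors. Thus 5 of 6 treated libraries were above every control and 4 of 6 were above every abscopal library (3.29 to 12.1 CPM). The log2 fold change was 1.38 ± 0.45 for treated over control tumors and 0.93 ± 0.36 for treated over abscopal tumors. It rested on 12 to 29 counts per treated library, but not on 1 library: it ran from 0.99 to 1.91 as each was left out. On day 7 the order was different, with 5.997 to 28.0 CPM in control tumors, 4.35, 20.3 and 12.04 CPM in treated tumors and 3.69, 2.63, 15.01 and 9.503 CPM in abscopal tumors. The log2 fold change of abscopal over control tumors on day 7 was -1.19 ± 0.49. On day 3, CD45- cells held 0.639 to 2.82 CPM in control, 1.397 to 4.21 CPM in treated and 2.27 to 3.815 CPM in abscopal tumors. Above every control were 4 of 7 treated and 6 of 7 abscopal libraries. These were too few counts on day 3 to pass the filter for a fit.

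The ferritin genes gave different pictures. Fth1, the heavy chain that oxidizes iron for storage, was at 2292, 2181, 3874 and 4144 CPM in CD45+ day 3 control tumors and at 3208, 5049, 12540, 3370, 2771 and 5662 CPM in treated tumors. The 3 treated libraries above every control included replicate 3, which was far above the others, and without it the log2 fold change of 0.80 ± 0.35 was 0.35. In CD45- cells on day 3, Fth1 was at 922, 832, 1297 and 1277 CPM in control tumors and 979 to 2021 CPM in treated tumors, 4 of 7 of them above every control (0.35 ± 0.16). On day 7 the treated over control value for Fth1 in CD45+ cells was -0.33 ± 0.31, with 2726, 4283 and 3565 CPM in treated tumors against 2494 to 7581 CPM in controls. Ftl1, the light chain, was at 13.9, 21.2, 30.9 and 45.4 CPM in CD45+ day 3 control tumors and at 5.95, 22.6, 74.9, 6.79, 9.88 and 25.1 CPM in treated tumors, 1 of 6 above every control and 3 of 6 below every control (-0.26 ± 0.55). Ftl1 is 91.0% identical over the whole transcript, and 68.5% over the last 150 bases, to Ftl1-ps1, which is named as a pseudogene but annotated as protein-coding in GENCODE M21. Ftl1-ps1 had more counts than Ftl1 in CD45- day 3 treated tumors (55.6 to 291 CPM, median 139, against a median of 30.2 for Ftl1). Control tumors held 44.8 to 79.0 CPM of Ftl1-ps1, and adding both rows took the CD45- day 3 value of Ftl1 from 0.14 to 0.93. How reads were divided between these copies was not stated, so the Ftl1 levels are uncertain.

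No member passed edgeR's quasi-likelihood test at an adjusted p of 0.05 in any of the 12 treatment contrasts. Since the members were chosen on these contrasts, nothing is read from that count. Beside it, the share of all tested genes that passed in CD45+ cells on day 3 was 7.80% for treated against control tumors, 0% for abscopal against control and 5.44% for treated against abscopal. In CD45+ cells on day 7 it was 0%, 0% and 0% in the same order. In CD45- cells it was 0.0916%, 0% and 0.147% on day 3, and 0%, 0.291% and 0% on day 7. Of the 8 members tested in CD45+ cells on day 3, 6 were under an unadjusted p of 0.05 for treated against control, 0 for abscopal against control and 7 for treated against abscopal. Of all 10264 genes tested there, 2457, 796 and 1918 were under it in the same order. The matching counts were 0, 2 and 4 in CD45+ cells on day 7, 6, 0 and 6 of the 7 tested in CD45- cells on day 3, and 0, 3 and 3 of 8 in CD45- cells on day 7. Over all genes they were 344, 800 and 290 of 10817, then 1154, 567 and 1474 of 10921, then 668, 1051 and 741 of 10996. DESeq2 called 3 members for treated against control tumors in CD45+ cells on day 3 (Hba-a1, Hba-a2 and Slc40a1) and 0 in the other 11 contrasts. Without the filter on low counts, edgeR called 6, 3 and 8 members in CD45+ cells on day 3, in the order of contrasts above, 1, 5 and 4 on day 7, 3, 0 and 4 in CD45- cells on day 3 and 0, 2 and 2 on day 7. Shares of all genes under DESeq2 or without the filter were not worked out, so nothing is read from these counts either.

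The sorted fractions of control tumors could be compared with a test, since the members were not chosen on that comparison. CPM in this comparison come from scaling both fractions together, so levels and overlaps can differ from those given above and in the figures of single libraries. In control tumors 7 of 8 members tested were higher in CD45+ than in CD45- cells on both days, where 65.2% of all tested genes differed in either direction on day 3 and 80.3% on day 7. On day 7, Hbb-bs was at 819 ± 417 CPM (SD, n = 10) in CD45+ cells and 40.4 ± 35.2 (SD, n = 11) in CD45- cells, with no overlap, a log2 fold change of 4.29 ± 0.60 (edgeR adjusted p = 2.98e-08). The alpha-globin Hba-a1 was higher by 4.399 ± 0.528 (edgeR adjusted p = 1.11e-09). Hmox1 was at 1257 ± 439 CPM in CD45+ cells and 400.0 ± 152 in CD45- cells (1.66 ± 0.20, edgeR adjusted p = 1.33e-09), and 8 of 10 CD45+ libraries were above every CD45- library. Slc40a1 was at 18.1 ± 8.81 and 3.79 ± 1.57 CPM (2.23 ± 0.30, edgeR adjusted p = 1.39e-08). Fth1 had the smallest adjusted p, with 4765 ± 1826 CPM in CD45+ cells and 1117 ± 176 in CD45- cells (2.09 ± 0.17, edgeR adjusted p = 4.20e-14). Ftl1 was the exception, with a difference of 0.66 ± 0.34 on day 7 (edgeR adjusted p = 0.0709) and 0.37 ± 0.55 on day 3 (edgeR adjusted p = 0.574). On day 3, with 4 libraries a fraction, the differences were 4.21 ± 1.17 for Hbb-bs, 1.46 ± 0.35 for Hmox1, 1.62 ± 0.50 for Slc40a1 and 1.82 ± 0.32 for Fth1. Slc40a1 had too few CD45- counts on day 3 for a fit of that fraction, so it entered this test through CD45+ libraries. Its call there is limited by that. In a fit of the 2 control groups alone it was not tested, and 6 of 7 members were called. Without CD45+ control replicate 4 the day 3 count fell to 3 members, Hbb-bs, Hmox1 and Fth1, and the Hba-a1 difference of 3.45 became 1.76.

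**Figure D3:**
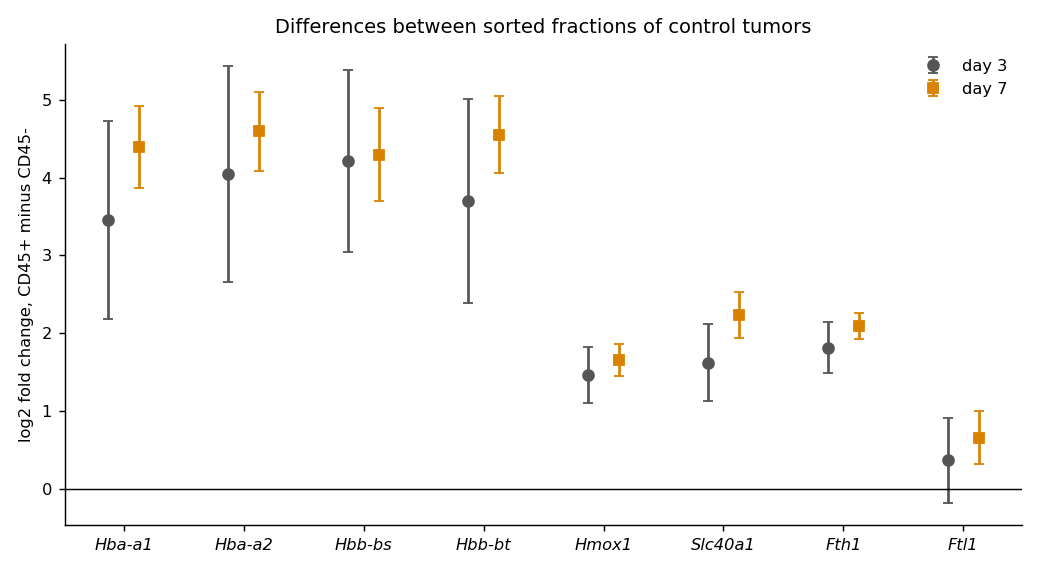
Log2 fold change (± SE) of CD45+ over CD45- cells in control tumors for the 8 members tested, day 3 as circles and day 7 as squares. The 4 globins lie between 3.45 and 4.597, Hmox1, Slc40a1 and Fth1 between 1.46 and 2.23, and Ftl1 lies nearest 0.

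Day 7 was set against day 3 in control tumors, where the members were again tested. In CD45+ cells no member passed, beside 0.00889% of all tested genes, although 4 of 8 were under an unadjusted p of 0.05, as were 561 of all 11251 genes. DESeq2 called 0 and had 5 of 8 under an unadjusted p of 0.05. Hba-a1 was higher on day 7 by 2.07 ± 0.93 and Slc40a1 by 1.56 ± 0.47, each with an edgeR adjusted p of 0.956. In CD45- cells 0 members passed, beside 0% of all genes, with 1 under an unadjusted p of 0.05, as were 503 of all 11548 genes. There too DESeq2 called 0, with 2 under an unadjusted p of 0.05. Shares of all genes under DESeq2 were not worked out. The days were deposited as separate tables, so day and table cannot be told apart.

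The wider pathway was read from 53 other genes of heme synthesis, heme scavenging and breakdown, iron uptake, storage and release, and iron sensing. In CD45+ cells on day 3, 6 of the 35 tested passed the test for treated against control tumors, 5 rising and 1 falling, beside 7.80% of all genes. The list was written with earlier results of these data known, so its calls are not independent support for a change in the pathway. The median log2 fold change of the 35 was 0.112, against -0.009 over all genes. By role, 2 of 9 heme synthesis genes passed (1 rose and 1 fell), 1 of 7 for scavenging and breakdown, 2 of 11 for uptake, storage and release, and 1 of 8 for sensing. Alas1, which starts heme synthesis outside the red cell line, was at 16.7, 17.6, 23.8 and 27.6 CPM in control tumors and at 45.0, 68.6, 108, 76.1, 32.1 and 103 CPM in treated tumors. It rose by 1.72 ± 0.32 on the log2 scale with no overlap (edgeR adjusted p = 0.00340). Of the abscopal libraries, 5 of 7 were also above every control for Alas1, but that difference of 0.88 ± 0.31 did not pass (edgeR adjusted p = 0.560), nor did treated over abscopal (0.84 ± 0.26, edgeR adjusted p = 0.0578). Cpox, a later enzyme of the same pathway, fell by 0.94 ± 0.23, and 5 of 6 treated libraries were below every control (edgeR adjusted p = 0.0164). Hp, haptoglobin, which binds free hemoglobin and is also stored in neutrophil granules, was at 99.1, 85.2, 99.3 and 65.0 CPM in control tumors and at 116, 323, 425, 217, 122 and 528 CPM in treated tumors. The groups did not overlap and Hp rose by 1.73 ± 0.37 (edgeR adjusted p = 0.00706). For Hp, 6 of 7 abscopal libraries were above every control (0.79 ± 0.35, edgeR adjusted p = 0.620). Lcn2, lipocalin 2, a neutrophil granule protein that binds iron-carrying siderophores, was at 2.78, 7.23, 22.6 and 20.0 CPM against 25.5, 36.1, 432, 32.6, 4.32 and 410 CPM and rose by 3.48 ± 0.95 (edgeR adjusted p = 0.0268). The mitochondrial iron importer Slc25a37 rose by 1.13 ± 0.28 (edgeR adjusted p = 0.0154), and Nfe2l2, a transcription factor of the oxidative stress response that acts on Hmox1, by 0.69 ± 0.21 (edgeR adjusted p = 0.0438). The neutrophil markers named earlier moved with these genes. The 9 T cell markers moved the other way, summing to 2103 to 2594 CPM in control, 682 to 1993 CPM in treated and 1904 to 2479 CPM in abscopal tumors, with no overlap between treated and control libraries. The part of either cell type was not tested.

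Alas1 and Hp passed in all 10 fits that left out 1 of these libraries, while Lcn2 and Nfe2l2 each failed in 6 of 10 and Cpox and Slc25a37 each in 2. With only the 2 groups compared in the fit, 2 pathway genes passed in place of 6. Other genes of the pathway did not pass for treated against control tumors: the transferrin receptor gene Tfrc differed by -0.48 ± 0.16 (edgeR adjusted p = 0.0683), the heme transporter gene Slc48a1 by 0.36, the heme exporter gene Flvcr1 by 0.04, the biliverdin reductase gene Blvrb by 0.09 and Bach1, a heme-sensing repressor of Hmox1, by 0.33. Cd163, the macrophage receptor for haptoglobin and hemoglobin, had 0 to 19 counts and did not pass the filter. Against abscopal tumors, Lcn2 rose by 3.17 ± 0.74 (edgeR adjusted p = 0.0129) and Slc25a37 by 0.89 ± 0.23 (edgeR adjusted p = 0.0223). Neither passed without treated replicate 3. For Lcn2, only treated replicates 3 and 6 (432.4 and 409.5 CPM) were above the highest abscopal library (44.62 CPM). In the other 10 treatment contrasts 0 pathway genes passed. In CD45- cells on day 3, 7 of 7 abscopal libraries were above every control for Alas1 (0.52 ± 0.15, edgeR adjusted p = 0.639).

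**Figure D4:**
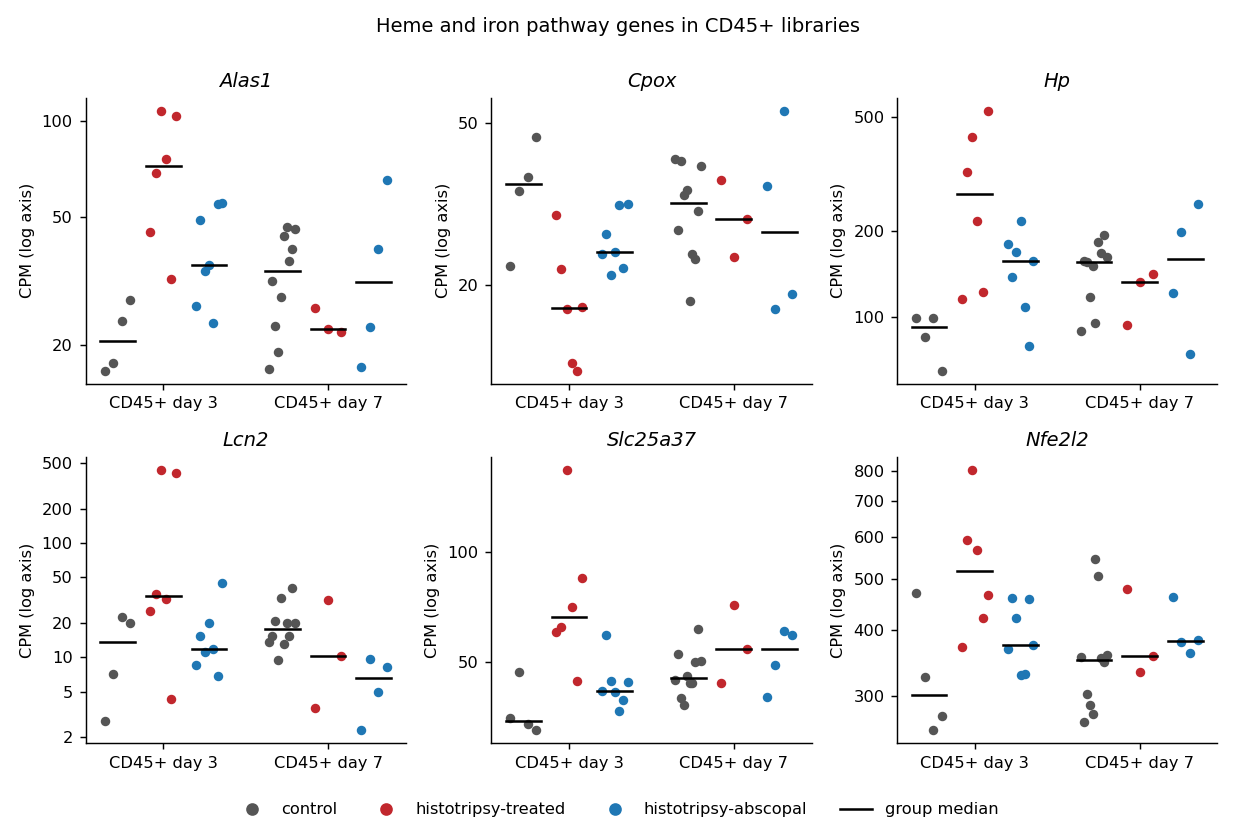
Level of the 6 pathway genes that passed in CD45+ day 3 tumors (Alas1, Cpox, Hp, Lcn2, Slc25a37 and Nfe2l2) in every CD45+ library of both days (CPM, log axis), with black bars at group medians. Treated and control libraries of day 3 do not overlap for Alas1 and Hp.

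On day 7 the treated CD45+ libraries averaged below the controls for Alas1, Hp and Lcn2. The 3 treated libraries held 23.5 ± 2.23 CPM (SD) of Alas1 and the 10 control libraries 33.2 ± 11.1 CPM (SD), while the means were 123 and 147 CPM for Hp and 15.4 and 20.1 CPM for Lcn2. The change of the treated over control difference from day 3 to day 7 was tested itself, and 2.70% of all genes passed. It passed for Alas1 (-2.18, edgeR adjusted p = 0.0140), Hp (-1.98, edgeR adjusted p = 0.0216) and Lcn2 (-4.14, edgeR adjusted p = 0.0484). Each of the 3 calls was lost without treated day 7 replicate 1 or replicate 3, and the values of Alas1 were then -2.26 and -2.12. Without control day 3 replicate 4, Alas1 alone passed. With replicate number as a block in the fit, none of the 3 passed.

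Between the fractions of control tumors, pathway genes differed in both directions, about as often as other genes. Levels here are again from scaling both fractions together. Of 39 tested, 19 were higher and 12 lower in CD45+ than in CD45- cells on day 7, beside 80.3% of all genes differing, and 17 and 11 on day 3, beside 65.2%. On day 7 they had a median log2 fold change of 0.217 against 0.039 over all genes. Higher in CD45+ cells were the phagosomal iron transporter gene Slc11a1, at 48.2 ± 12.5 CPM against 0.185 ± 0.332 on day 7 (edgeR adjusted p = 4.60e-23), Hp, at 158 ± 37.4 against 0.889 ± 1.44 CPM (1.28e-19), Lrp1, a receptor that takes up heme bound to hemopexin, at 131 ± 38.1 against 11.1 ± 5.53 CPM, and Bach1, at 96.6 ± 23.5 against 23.0 ± 4.62 CPM (2.55e-16). Lower in CD45+ cells were Tfrc, the route of iron uptake from transferrin, at 173 ± 27.2 against 518 ± 48.8 CPM (edgeR adjusted p = 5.21e-19), the iron transporter gene Slc11a2, at 28.9 ± 6.16 against 78.3 ± 8.17 CPM, and the ferrireductase gene Steap3, at 2.78 ± 1.06 against 23.0 ± 5.53 CPM. These 7 genes, named from a fixed list or for a small p, did not overlap between fractions on day 7. The share of all genes without overlap was not worked out, so nothing is read from that count. Slc11a1 and Hp were near 0 in CD45- controls. They passed the count filter mainly through CD45+ libraries, so their calls as higher were close to fixed in advance. On day 3, Tfrc was again lower (205 against 550.0 CPM, edgeR adjusted p = 1.03e-09) and Bach1 again higher (by 2.37, edgeR adjusted p = 1.93e-10).

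Some genes outside the pathway followed the members from library to library. By Pearson's r of log2 levels after removal of group means, the 5 genes most like Hmox1 over the 17 CD45+ day 3 libraries were Il1f9 (0.924), Pdpn (0.919), Cd36 (0.893), Ppbp (0.882) and Por (0.874). Over the 17 of day 7 they were Hpgds (0.831), Ppbp (0.814), Gm7160 (0.808), Fam114a1 (0.801) and Ctsd (0.797). Ppbp, a platelet chemokine precursor, was in both lists. For summed globin the nearest genes were Pmp22 (0.933) and P2ry10b (0.890) on day 3, and Mgat5 (0.840) on day 7. In CD45- cells the nearest to Hmox1 were Mrpl19 (0.833) and Park7 (0.818) on day 3, and Oxr1 (0.849) and Mau2 (0.845) on day 7. These are the highest values over all tested genes in few libraries that share depth and cell make-up, and they are given as a description.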

How the data were processed

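The authors deposited unnormalized counts per gene, 1 table for each sorted fraction and day, from QuantSeq 3' libraries with unique molecular identifiers, sequenced single-end. Per the submitters' notes and methods, reads were trimmed with Trim Galore 0.5.0, aligned to GRCm38 with STAR 2.6.0, collapsed by molecular identifier and counted with featureCounts. Strand setting and handling of reads with several matches are not given in the sources used here. A row of totals with no gene name in both CD45+ tables was left out, which otherwise doubles the library size. All 70 libraries were used.

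From the counts, each table was fitted with edgeR 4.0.16 (R 4.3.3, TMM, filterByExpr with a minimum count of 10, quasi-likelihood test, Benjamini-Hochberg over all genes, threshold 0.05), with the 3 groups in 1 fit. Joint fits gave fraction within a day, day within a fraction, and the change of the treatment difference between days. The fits were tested on simulated data. Alternatives were DESeq2 1.42.0, library totals, no filter, only 2 groups, a replicate block, pseudogene sums and leaving out each library.

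The members and gene lists were chosen with earlier results of these data known. Members are named throughout. Of other pathway genes, Tfrc, Slc48a1, Blvrb, Flvcr1, Cd163, Lcn2 and Bach1 and up to 6 with the smallest p past the threshold in a contrast are named. Nothing states that libraries of a group came from separate animals, so p-values measure the spread between these libraries, which may be partly technical. For CD45- cells on day 3 the paper's legends give fewer mice per group than the 7 treated and 7 abscopal libraries held here. Some of these libraries may therefore share an animal. Intervals for counts of 0 cover counting error only. Same-numbered libraries deviated together inconsistently, so numbers were not used as pairs. Sequences came from GENCODE M21 and RefSeq and were searched with Biopython 1.88. Some named genes are not reported here.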

Additional observations from a re-analysis of the deposited data

Results flagged for a closer look

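Of 72 groups of 4 to 10 libraries examined gene by gene, 15 had a highest or lowest library far from the others by Dixon's test. That test flags about 1 in 20 by chance when values are normally distributed. It was run on CPM, which are skewed upward, so the chance rate here is not known. In CD45+ cells on day 3, control replicate 4 stood above the other controls for Hba-a1 (92.61 CPM), Hba-a2 (69.93 CPM), Hbb-bs (564.7 CPM) and Hbb-bt (193.2 CPM). In the same cells, histotripsy-treated replicate 3 stood above the other treated libraries for Hba-a1 (1287 CPM), Hba-a2 (824.9 CPM), Hbb-bs (5028 CPM), Hbb-bt (2485 CPM), Fth1 (12540 CPM) and Ftl1 (74.85 CPM). Histotripsy-abscopal replicate 1 was far below the rest for Fth1 (1624 CPM). In CD45- cells on day 3, control replicate 4 stood apart for Hba-a1 (9.595 CPM) and treated replicate 4 for Hba-a2 (32.14 CPM) and Hbb-bt (91.53 CPM). On day 7, CD45- abscopal replicate 4 stood apart for Hba-a1 (14.72 CPM). The 4 globin genes moved together, so these flags come from few libraries counted several times.

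In CD45+ cells the treated over control difference changed between day 3 and day 7 for Alas1 (-2.177 on the log2 scale), Hp (-1.979) and Lcn2 (-4.14), by edgeR's test of the difference itself. Each of these calls was lost without treated day 7 replicate 1 or replicate 3, and with the replicate block.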

How the results depend on the processing

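Of 576 member values recomputed under a setting other than leaving out a library, 563 stayed within the spread between replicates and 13 moved, and of 1078 that left out a library 1056 stayed. The number of pathway genes called for treated against control tumors in CD45+ cells on day 3 went from 6 to 2 with only 2 groups in the fit, and ranged from 2 (without control replicate 3 or 4) to 7 as libraries were left out. For treated against abscopal tumors there it went from 2 to 4 with DESeq2 and 7 without the filter, and ranged from 0 (without treated replicate 3) to 4. Without the filter, abscopal against control gave 2 calls in CD45+ cells on day 3, 2 on day 7 and 3 in CD45- cells on day 7, each against 0. In CD45- cells on day 3, treated against abscopal gave 1 call with DESeq2 and 2 without the filter, against 0, and leaving out libraries gave 0 to 1 there and for abscopal against control in CD45- cells on day 7. The count of members higher in CD45+ cells on day 3 ranged from 3 to 7, and the count of members differing by day in CD45+ cells was 5 without the filter, against 0. The count of pathway genes whose treatment difference changed by day went from 3 to 0 with the replicate block and ranged from 0 to 3 as libraries were left out. The replicate block called 3 members for treated against control tumors in CD45+ cells on day 3 (Hba-a1, Hba-a2 and Slc40a1). Shares of all genes called were not worked out for the alternative settings. Same-numbered libraries of 2 treatment groups correlated at -0.406 to 0.482, and in none of the 12 comparisons was every pair above 0.1. Between fractions every pair was above 0.1 in 1 of 6 groups, the day 7 abscopal tumors (0.11 to 0.293), which enter no fraction contrast. Numbers need not match tumors between fractions, so this check cannot decide whether the fractions were paired. The fraction contrasts treated their libraries as unpaired. The Ftl1 day difference in CD45+ cells, 0.02, reversed to -0.021 with library totals and -0.73 with the replicate block and ranged from -0.187 to 0.37 as libraries were left out (below 0 in 5 fits), and in CD45- cells it ranged from -0.469 to 0.201 (above 0 without control day 3 replicate 3). The cause of these changes was not tested. Genes of few counts, such as Alas2, Slc40a1 and the globins in CD45- cells, are limited by depth.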

Other observations

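Libraries of the 2 fractions with the same group, day and number were set side by side for globin, although the labels do not say that they share a tumor. Group sizes differ between the fractions (6 and 7 treated libraries on day 3, 10 and 11 control libraries on day 7), so the numbers need not match tumors, and the treated libraries highest for globin on day 3 were replicates 3 and 4 in CD45+ cells and 4 and 5 in CD45- cells. The summed globin level, as the log2 deviation from its group, correlated between the fractions at r = 0.532 (Spearman's rho 0.578) over 34 pairs, at 0.481 over the 17 pairs of day 3 and at 0.644 over the 17 of day 7, and at 0.699 without the 2 pairs farthest from the median. The library highest for globin had the same number in both fractions in 4 of 6 groups. These values are given as a description.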
